A study of Mus musculus with 8 samples.

Results

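The constitutive proteasome genes were examined in sorted mouse regulatory T cells. All probes were taken whose annotated gene symbol starts with Psma, Psmb, Psmc, Psmd, Psme, Psmf or Psmg followed by a digit, with the immunoproteasome genes Psmb8, Psmb9 and Psmb10 left out. This gave 63 of the 25697 probes on the array, for 42 genes. Of these, 40 genes encode subunits, activators or assembly chaperones of the proteasome. The other two match the symbol rule only and are given apart: Psmc3ip, a recombination protein, and Psme3ip1, a partner of the activator encoded by Psme3. The RNA came from CD4+GFP+ natural regulatory T cells of C57BL/6 mice whose GFP reports FoxP3, the transcription factor that defines these cells. It was hybridised to 8 Illumina MouseRef-8 v2.0 bead arrays of 1 colour. The groups were 4 arrays titled G-CSF, from mice given this stem cell mobilising growth factor, and 4 titled Naive, whose treatment label is saline. The labels give no dose, time, age or sex, and do not say whether each array held RNA of a separate mouse or of a pool, so p-values measure the spread between these arrays, which may be technical.

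A fault in the deposited table bears on every direction below. Each detection p-value column stands beside an intensity column, and for 0 of the 8 arrays were these p-values in the order of the intensities beside them. All 8 p-value columns were in order with the intensities of the same replicate number in the other group. Directions here follow the titles of the intensity columns and would turn if those titles are misplaced. Between 9588 and 10519 probes were detected on an array, and the median raw intensity was 125.4, 125.8, 180.8 and 145 on G-CSF replicates 1 to 4, against 124.7, 122.4, 117.8 and 123.3 on Naive replicates 1 to 4. G-CSF replicates 3 and 4 were thus the brightest arrays before normalisation. All 5 regulatory T cell markers on the array (Foxp3, Il2ra, Ctla4, Ikzf2 and Tnfrsf18) were detected and none was called. Their log2 differences, G-CSF minus Naive, were 0.49, 0.21, -0.57, -0.07 and -0.19, in this order. That of Ctla4 had a limma adjusted p of 0.0951. Of markers of other cells, Cd8a, Ms4a1, Mpo, Alas2 and Ncr1 were detected on none of the 8 arrays. The neutrophil genes S100a8, S100a9 and Elane were detected on 3, 2 and 1 arrays, the B cell gene Cd79a on 2 and the monocyte gene Cd14 on 1, too few to be tested. Cd8b1, Cd79b, Lyz2, Adgre1, Hba-a1, Hbb-bt and Klrb1c were detected on 6 or more and 0 were called. Their differences between G-CSF and Naive arrays on the log2 scale were -0.33, -0.07, 0.60, -0.25, 0.38, 1.01 and 0.27, in this order, and that of the haemoglobin gene Hbb-bt had a limma adjusted p of 0.106. The part of such cells in the results was not tested.

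The proteasome degrades proteins tagged with ubiquitin. Its barrel-shaped core particle, called 20S, stacks rings of alpha subunits, which form the gate, and of beta subunits, of which a few hold the proteolytic sites. The regulatory particle, called 19S, caps the core: its base contains a ring of ATPases that unfold and thread the substrate, and its lid removes the ubiquitin. Other caps, the PA28 and PA200 activators, open the gate without ATP, and dedicated chaperones assemble both particles. Interferon gamma can lead cells to exchange the catalytic beta subunits for immunoproteasome forms, and it induces PA28alpha and PA28beta. T cell receptor signals need the proteasome to remove the inhibitors of NF-kB.

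No proteasome probe passed the test for a difference between G-CSF and Naive arrays. Tests took in probes with a detection p-value below 0.01 on 4 or more of the 8 arrays, counted without regard to group. This held for 55 of the 63 probes and 40 of the 42 genes. The 8 others were the only probes of Psma1 and Psma6 and further probes of Psma3, Psmb2, Psmd2, Psmd5, Psmd11 and Psme4. Of the 55, 0 had a limma p-value under 0.05 after Benjamini-Hochberg adjustment over all 10205 probes tested, of which 2.2% had. At an unadjusted limma p under 0.05 there were 10 of 55 (18.2%), 5 higher and 5 lower in G-CSF arrays, while 24.9% of all tested probes were under that value. The smallest adjusted limma p of a member was 0.0791, that of Psmd5.

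After quantile normalisation, the differences were small and centred near 0. Each gene is represented by its brightest tested probe, and a difference is G-CSF minus Naive on the log2 scale of background-corrected, quantile-normalised intensity. Over the 38 subunit genes tested, 18 had a positive and 20 a negative difference, with a median of -0.01 and a range of -0.71 to 0.72. The median over all tested probes was also -0.01. The median size regardless of sign was 0.19 for subunit genes and 0.24 for all tested probes. The subunit probes were brighter, with a median log2 level of 11.74 against 9.17 for all tested probes. Their median SE was 0.159, against 0.177. Neither this comparison nor the next is matched for level, and the part of level in them was not tested. For 22 of the 38 genes (57.9%) the 95% interval of the difference lay within 1.5-fold either way, against 41% of all tested probes. For 36 of 38 it lay within 2-fold, the exceptions being Psmd5 and Psme3. Median differences by subcomplex were -0.08 for the alpha ring (5 genes), -0.05 for the beta ring (7), 0.08 for the 19S ATPases (6), -0.14 for the other 19S genes (13), 0.20 for the activators (4) and -0.18 for the 20S assembly chaperones (3). With 1 array left out in turn, these medians ranged from -0.12 to -0.03, from -0.09 to 0.06, from 0.05 to 0.12, from -0.17 to -0.09, from 0.16 to 0.26 and from -0.31 to -0.09, in this order. The beta ring median turned positive without G-CSF replicate 2 (0.06), Naive replicate 2 (0.04) or Naive replicate 4 (0.02). The chaperone median was lowest without Naive replicate 1 and highest without G-CSF replicate 2. Over all 38 genes the median ranged from -0.05 to 0.07. Quantile normalisation gives all arrays the same distribution, so a median near 0 over all probes is partly set by it. Under median scaling in its place, the median was 0.24 for subunit genes and 0.29 for all tested probes. With median scaling over probes detected on all arrays, these were -0.11 and -0.06.

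**Figure D1:**
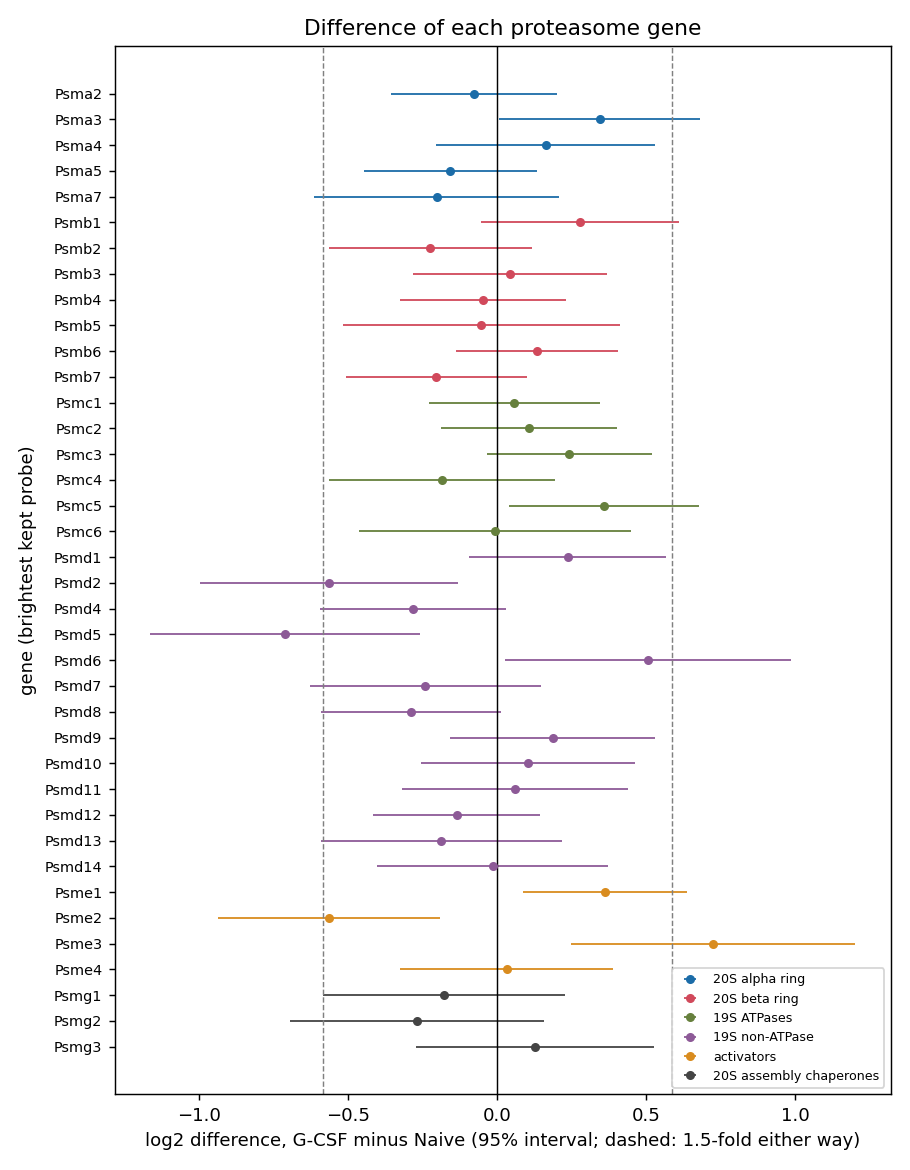
Log2 difference of each of the 38 subunit genes (y axis, brightest tested probe) between G-CSF and Naive arrays, with its 95% interval from limma, coloured by subcomplex; dashed lines mark 1.5-fold either way. Points run from -0.71 for Psmd5 to 0.72 for Psme3, and 36 of the 38 intervals stay within 1 on either side of 0.

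In the alpha ring, which gates the core, 5 of 7 genes on the array were tested and 0 were called. The probes of Psma1 and Psma6 were detected on no array, so nothing is known here of these subunits. Psma3 had log2 intensities of 14.04, 14.08, 14.27 and 14.55 in G-CSF arrays, against 14.05, 13.94, 13.76 and 13.80 in Naive arrays. The groups overlapped through Naive replicate 1, and the difference was 0.34 ± 0.15 (SE, n = 4 per group; limma adjusted p = 0.195). Psma4 had 13.08, 12.84, 13.54 and 13.41 in G-CSF arrays and 12.96, 13.09, 13.10 and 13.09 in Naive arrays. Only the bright G-CSF replicates 3 and 4 stood above the Naive range. Psma5 had 13.71, 13.67, 13.52 and 13.56 in G-CSF arrays, against 13.69, 13.98, 13.76 and 13.67 in Naive arrays, with the bright replicates lowest. Psma7 had 12.71, 12.55, 12.58 and 12.15 in G-CSF arrays, against 12.24, 12.86, 12.81 and 12.89 in Naive arrays. Only Naive replicate 1 fell within the G-CSF range. The differences were 0.16 ± 0.17 for Psma4, -0.16 ± 0.13 for Psma5 and -0.20 ± 0.19 for Psma7 (SE; limma adjusted p = 0.558, 0.468 and 0.509). Psma7 has another tested probe, which gave -0.20 as well. Psma2 had -0.08.

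The beta ring had the narrowest spread among the subcomplexes of 5 or more genes, from -0.22 to 0.28, with 0 of 7 genes called and 0 at an unadjusted limma p under 0.05. Psmb5, Psmb6 and Psmb7 carry the chymotrypsin-like, caspase-like and trypsin-like sites. Psmb5 had log2 intensities of 10.90, 10.59, 11.22 and 10.96 in G-CSF arrays, against 10.39, 11.26, 11.04 and 11.18 in Naive arrays. The lowest of all 8 values was that of Naive replicate 1, and the groups overlapped. Its difference was -0.05 ± 0.21 (SE), with a 95% interval of -0.52 to 0.41. Psmb6 had 12.85, 12.95, 12.99 and 13.08 in G-CSF arrays, against 12.72, 12.89, 12.86 and 12.88 in Naive arrays. Its groups overlapped only through G-CSF replicate 1, with a difference of 0.13 (95% interval -0.14 to 0.41). Psmb7 had 12.18, 11.97, 12.33 and 12.26 in G-CSF arrays, against 12.20, 12.42, 12.48 and 12.46 in Naive arrays on its brightest probe, a difference of -0.21 (95% interval -0.51 to 0.10). The other 2 probes of Psmb7 gave -0.31 and -0.20. The limma adjusted p-values of the 3 catalytic genes on these probes were 0.895, 0.516 and 0.369. Among the non-catalytic beta genes, Psmb1 had 13.51, 13.51, 13.87 and 13.91 in G-CSF arrays, against 13.21, 13.53, 13.45 and 13.50 in Naive arrays. Psmb2 had 13.65, 13.54, 13.19 and 13.22 in G-CSF arrays, against 13.43, 13.74, 13.72 and 13.62 in Naive arrays. The bright replicates 3 and 4 were thus highest for Psmb1 and lowest for Psmb2. The differences were 0.28 ± 0.15 for Psmb1 and -0.22 ± 0.15 for Psmb2 (SE; limma adjusted p = 0.276 and 0.380). Psmb3 had 0.04 and Psmb4 -0.05.

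Among the immunoproteasome counterparts, Psmb8, which replaces Psmb5, had 10.98, 10.66, 10.72 and 10.33 in G-CSF arrays, against 10.58, 11.48, 11.10 and 11.21 in Naive arrays. Psmb9, which replaces Psmb6, had 13.66, 13.41, 13.37 and 13.38 in G-CSF arrays, against 13.33, 13.39, 13.41 and 13.39 in Naive arrays. The groups overlapped for both. Psmb9 had a difference of 0.08 and Psmb8 of -0.42, and the probes of Psmb10 gave 0.04 and -0.31. None was called, with limma adjusted p of 0.737, 0.238, 0.891 and 0.427.

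The 6 ATPase genes of the 19S base were all tested and 0 were called. Psmc5 had log2 intensities of 11.56, 11.36, 11.73 and 11.86 in G-CSF arrays, against 11.33, 11.35, 11.21 and 11.19 in Naive arrays on its brightest probe. These groups did not overlap, and the difference was 0.36 ± 0.14 (SE; limma adjusted p = 0.161). A second Psmc5 probe, annotated to the same transcript, gave 11.18, 10.82, 10.98 and 10.78 in G-CSF arrays and 11.14, 11.35, 11.24 and 11.34 in Naive arrays. That is a difference of -0.33 ± 0.14 (limma adjusted p = 0.172), so the pair of probes has opposite signs and no direction can be given for this gene. Psmc3 had 12.28, 12.35, 12.41 and 12.42 in G-CSF arrays, against 11.998, 12.28, 12.06 and 12.15 in Naive arrays, overlapping only between the lowest G-CSF and the highest Naive array. Psmc4 had 12.95, 12.73, 12.25 and 12.32 in G-CSF arrays, against 12.72, 12.83, 12.78 and 12.68 in Naive arrays, with the bright replicates lowest. The differences were 0.24 ± 0.13 for Psmc3 and -0.19 ± 0.17 for Psmc4 (SE; limma adjusted p = 0.259 and 0.513). Psmc6 was the dimmest ATPase probe, with 6.41, 6.22, 6.32 and 7.01 in G-CSF arrays, against 6.53, 6.89, 6.23 and 6.34 in Naive arrays. Its difference was -0.01 ± 0.21 (SE), while those of the remaining ATPases were 0.06 for Psmc1 and 0.11 for Psmc2.

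Among the 13 genes of the 19S particle that are no ATPases, 5 had a positive and 8 a negative difference, with 0 called. The largest negative difference of all members was that of Psmd5, a chaperone of base assembly that leaves before the particle is complete. It had log2 intensities of 7.91, 7.57, 7.59 and 7.05 in G-CSF arrays, against 7.85, 8.45, 8.25 and 8.42 in Naive arrays. Only Naive replicate 1 fell within the G-CSF range. The difference was -0.71 ± 0.20 (SE, n = 4 per group), with a 95% interval of -1.16 to -0.26 and a limma adjusted p of 0.0791. Without G-CSF replicates 3 and 4 it was -0.50 ± 0.21 (limma adjusted p = 0.345). It was called, at limma adjusted p under 0.05, without G-CSF replicate 1 (-0.84), without Naive replicate 1 (-0.84) and with array weights (-0.98). These fits called 6.98%, 10.7% and 37% of all tested probes, in this order. Its second probe was detected on no array. The other chaperones of base assembly had 0.19 (Psmd9) and 0.10 (Psmd10, the oncoprotein gankyrin) on their brightest probes. Their further probes gave -0.18 for Psmd9, and 0.03 and -0.48 for Psmd10.

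Psmd2 encodes the base scaffold that docks ubiquitin-like shuttle proteins. It had 7.51, 6.85, 6.83 and 6.78 in G-CSF arrays, against 7.53, 7.22, 7.68 and 7.79 in Naive arrays. The first G-CSF array stood with the Naive ones and the other 3 lay below them, a difference of -0.56 ± 0.20 (SE; limma adjusted p = 0.118). Without G-CSF replicates 3 and 4 the difference was -0.38 ± 0.23 (limma adjusted p = 0.494). With an offset of 50 it was also -0.38, and with no background correction -0.33. Psmd2 was called without G-CSF replicate 1 (-0.74) and with array weights (-0.78), fits that called 6.98% and 37% of all tested probes. Psmd1, the other large base scaffold, had 8.04, 8.27, 8.55 and 8.54 in G-CSF arrays, against 8.11, 8.08, 8.05 and 8.23 in Naive arrays. Its difference was 0.24 ± 0.15, and that of the ubiquitin receptor gene Psmd4 was -0.28 ± 0.14 (SE; limma adjusted p = 0.343 and 0.242).

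The lid genes had a median of -0.14 over 7 genes. Psmd8 had 12.65, 12.55, 12.25 and 12.39 in G-CSF arrays, against 12.77, 12.86, 12.67 and 12.70 in Naive arrays. All G-CSF values were below all Naive values, and the difference was -0.29 ± 0.14 (SE; limma adjusted p = 0.218). Psmd6 had 7.58, 7.40, 8.05 and 8.17 in G-CSF arrays, against 7.31, 7.75, 7.01 and 7.11 in Naive arrays. Here G-CSF replicates 3 and 4 were above all other arrays, and the difference was 0.51 ± 0.22 (SE; limma adjusted p = 0.183). Psmd14, the lid deubiquitinase that cuts ubiquitin off the substrate, had -0.02, and its partner Psmd7 -0.24 and -0.46 on its probes. Psmd11, Psmd12 and Psmd13 had 0.06, -0.14 and -0.19 on their brightest probes, and the other tested Psmd12 probe gave 0.24.

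The 4 activator genes spread most for their number, with differences of 0.72, 0.36, 0.03 and -0.57, and 0 called. Psme3 encodes PA28gamma, an activator of the nuclear proteasome. It had log2 intensities of 10.91, 11.27, 11.89 and 11.84 in G-CSF arrays, against 10.79, 10.85, 10.55 and 10.82 in Naive arrays. The groups did not overlap, and G-CSF replicates 3 and 4 were highest. The difference was 0.72 ± 0.22 (SE, n = 4 per group; 95% interval 0.25 to 1.20; limma adjusted p = 0.0854). Without the 2 brightest arrays, G-CSF replicates 3 and 4, it was 0.34 ± 0.16 (limma adjusted p = 0.395). Array brightness thus moved with this difference, and its part in it was not tested. It was called with a difference of 0.91 when G-CSF replicate 1 was left out, of 0.96 with array weights and of 1.02 under median scaling. Median scaling raised the median of all tested probes to 0.29. Of all tested probes 6.98%, 37% and 8.39% were called in these fits, in this order.

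Psme1 and Psme2 encode PA28alpha and PA28beta, which form 1 mixed ring, and their differences had opposite signs. Psme1 was singled out after its values were seen. It had 14.36, 14.14, 14.32 and 14.38 in G-CSF arrays, against 13.88, 14.01, 13.97 and 13.89 in Naive arrays. The groups did not overlap, and the difference was 0.36 ± 0.12 (SE; limma adjusted p = 0.115). Under median scaling over probes detected on all arrays it was 0.12 (limma adjusted p = 0.637). With array weights it was called (0.40, limma adjusted p = 0.0130), as were 37% of all tested probes. A second probe of Psme1 for the same transcript gave 0.04, with overlapping groups. Psme2 had 10.37, 9.97, 10.09 and 9.82 in G-CSF arrays, against 10.29, 10.73, 10.71 and 10.79 in Naive arrays. Naive replicate 1 and G-CSF replicate 1 lay between the other arrays of both groups. The difference was -0.57 ± 0.17 (SE; 95% interval -0.94 to -0.19; limma adjusted p = 0.0848), and -0.46 ± 0.20 without G-CSF replicates 3 and 4 (adjusted p = 0.356). It was called when G-CSF replicate 1 (-0.67) or Naive replicate 1 (-0.68) was left out, and with array weights (-0.76). Of all tested probes 6.98%, 10.7% and 37% were called in these fits, in this order. Psme4, the gene of PA200, had 0.03 ± 0.16.

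**Figure D2:**
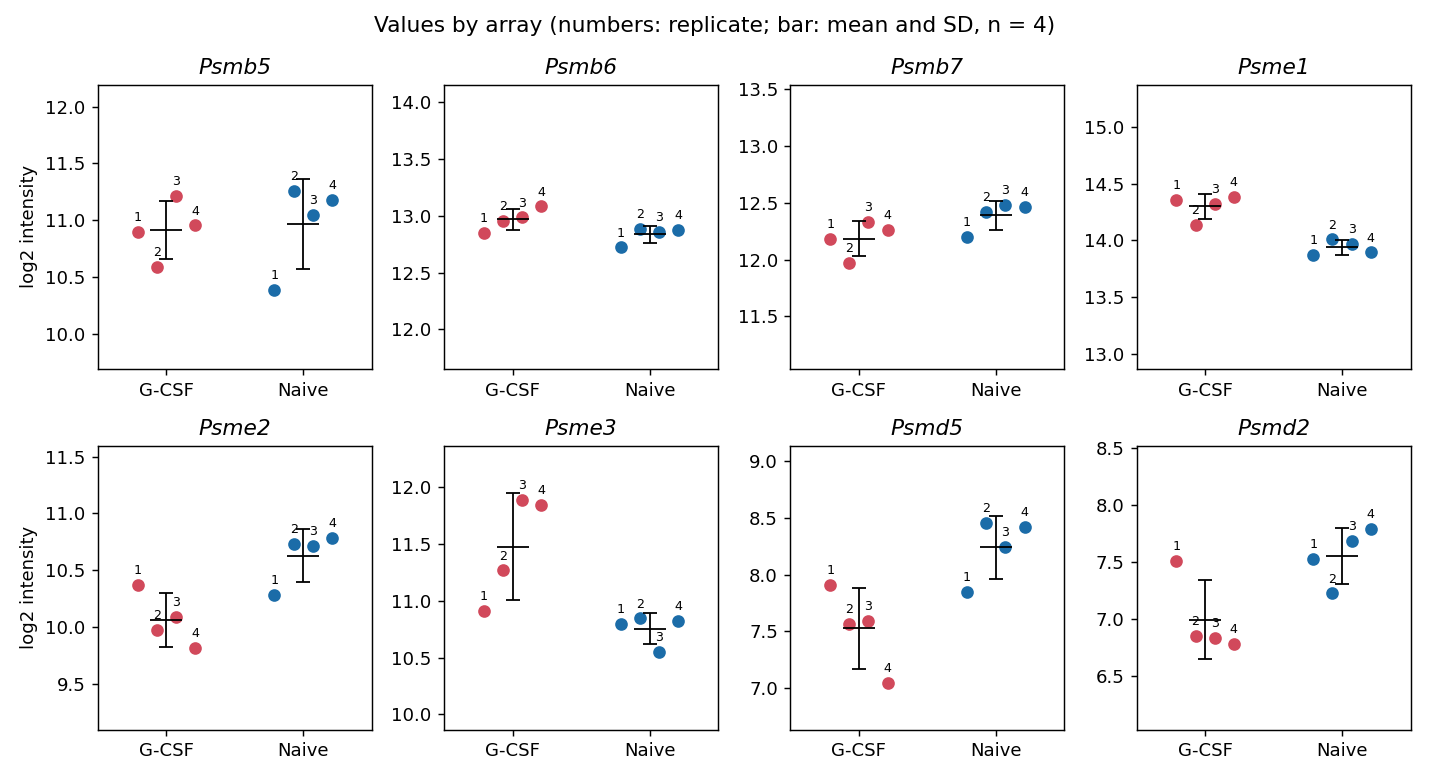
Log2 intensity (y axis, normalised) of 8 proteasome genes on each array, G-CSF left and Naive right, with replicate numbers at the points and bars for the mean and SD (n = 4). Psmb5, Psmb6 and Psmb7 overlap between the groups, Psme1 and Psme3 do not, and in Psme2, Psmd5 and Psmd2 the first replicate of a group lies within the range of the other group.

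The promoters of Psme1, Psme2, Psme3 and Psmd5 are shown because these genes include the most positive and most negative differences, and because the partners Psme1 and Psme2 had opposite signs. The windows, from RefSeq on GRCm38.p6, run from 250 bases before to 50 after the listed start, written 5′ to 3′ along the gene's strand. Psme2 has 2 listed starts and the first is shown. Capitals mark matches on either strand to any of 4 motifs: the ETS-type site CCGGAAG, the antioxidant response site TGACNNNGC, the interferon response core (TTTC and TTTC with any 2 bases between them) and the CCAAT box. None of these motifs is contained in another.
Psme1, chr14:55578244-55578543, plus strand: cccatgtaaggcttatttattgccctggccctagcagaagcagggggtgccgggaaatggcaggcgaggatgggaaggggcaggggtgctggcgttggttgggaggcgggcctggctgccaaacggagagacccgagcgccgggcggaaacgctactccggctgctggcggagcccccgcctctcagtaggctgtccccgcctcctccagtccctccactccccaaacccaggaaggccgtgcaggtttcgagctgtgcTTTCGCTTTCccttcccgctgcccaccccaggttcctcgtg
Psme2, chr14:55591052-55591351, minus strand: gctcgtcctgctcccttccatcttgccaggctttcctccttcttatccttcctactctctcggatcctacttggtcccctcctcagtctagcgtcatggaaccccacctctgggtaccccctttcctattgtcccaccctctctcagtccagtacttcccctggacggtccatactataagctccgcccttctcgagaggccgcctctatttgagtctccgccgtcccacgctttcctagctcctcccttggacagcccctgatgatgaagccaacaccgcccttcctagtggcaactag
Psme3, chr11:101315963-101316262, plus strand: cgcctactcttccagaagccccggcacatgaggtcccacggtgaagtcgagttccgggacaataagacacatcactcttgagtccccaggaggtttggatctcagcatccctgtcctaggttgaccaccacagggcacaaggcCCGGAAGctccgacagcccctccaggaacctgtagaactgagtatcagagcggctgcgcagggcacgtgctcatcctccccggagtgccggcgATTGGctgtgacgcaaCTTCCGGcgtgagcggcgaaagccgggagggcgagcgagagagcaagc
Psmd5, chr2:34870913-34871212, minus strand: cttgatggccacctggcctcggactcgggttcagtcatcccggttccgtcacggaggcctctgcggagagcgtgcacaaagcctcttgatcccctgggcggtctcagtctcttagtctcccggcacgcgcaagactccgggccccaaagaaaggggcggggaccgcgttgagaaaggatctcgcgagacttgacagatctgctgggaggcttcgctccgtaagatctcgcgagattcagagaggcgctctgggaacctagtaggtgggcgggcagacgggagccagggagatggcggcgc
The Psme1 window holds 1 interferon response core and no other match. The Psme3 window holds 2 ETS-type sites and 1 CCAAT box. No match was found in the windows of Psme2 and Psmd5. A match describes letters only and shows no binding.

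Of the 40 subunit genes on the array, 34 had a promoter window, in 37 windows. The 6 without one were Psmb1, Psmb2, Psmb7, Psmc3, Psmd7 and Psmg2. CCGGAAG occurred in 15 of the 37 windows (40.5%), of 14 genes, against 8.86% of all 32851 windows and 12.2% of the 16535 windows of genes on the array. These genes lie in every subcomplex but the beta ring, among them Psma6, Psmc1, Psmd2, Psmd4, Psme3, Psme4 and Psmg1. The beta ring genes Psmb1, Psmb2 and Psmb7 had no window to search, and Psma6 is the only alpha ring gene. The interferon response core occurred in 10.8% of subunit windows (Psmb3, Psmd4, Psmd9 and Psme1) and in 3.44% of all windows. TGACNNNGC, a form of the site through which the factor NFE2L1 drives proteasome genes, occurred in 16.2%, those of Psmb5, Psmb6, Psmc6, Psmd9, Psmd12 and Psme4, and in 12.4% of all windows. CCAAT occurred in 32.4% and in 37.4%. The 4 motifs were chosen with results of these data known, and the shares are descriptions with no test.

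The 3 genes of 20S assembly chaperones were tested and 0 were called. Psmg2, which pairs with Psmg1 to build the alpha ring, had 10.76, 10.96, 10.16 and 10.23 in G-CSF arrays, against 10.67, 10.96, 10.84 and 10.71 in Naive arrays on its brightest probe. The bright G-CSF replicates 3 and 4 were lowest, while on the other Psmg2 probe they were highest. The differences of these probes were -0.27 ± 0.19 and 0.23 ± 0.16 (SE; limma adjusted p = 0.402 and 0.386). Psmg3 had 9.97, 9.64, 10.05 and 9.86 in G-CSF arrays, against 9.30, 10.09, 9.76 and 9.87 in Naive arrays. Naive arrays held both the lowest and the highest value, and the difference was 0.13 ± 0.18. Psmg1 had -0.18 ± 0.18. Outside the complex, Psmc3ip had 0.22 and Psme3ip1 -0.30 and -0.41 on its 2 probes, with no call.

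The members did not move as 1 block across the arrays. With each gene centred on its mean of the 8 arrays, the median deviation of the 38 subunit genes was 0.03, -0.05, 0.08 and 0.04 on G-CSF replicates 1 to 4, against -0.10, 0.14, 0.02 and 0.02 on Naive replicates 1 to 4. The lowest and the highest median were thus both Naive arrays. The same held over all tested probes, lowest on Naive replicate 1 (-0.03) and highest on Naive replicate 2 (0.04). Pairs of subunit genes had a median Pearson r of 0.12 over the 8 arrays, which share a normalisation. Against the mean of the other 37 genes, 9 genes had r over 0.5 and 9 had r under 0. The highest were the core genes Psmb4 (0.91), Psmb5 (0.88) and Psmb3 (0.84) and the chaperones Psmg3 (0.88) and Psmg1 (0.87), and the lowest was Psme4 (-0.81). The 5 genes outside the family whose values were most like the mean of the subunit genes were Gpr171, Mus81, Eif4e, Ssr2 and Gstm4, with r of 0.96 to 0.99 over 8 arrays. They were picked as the highest r among all tested genes outside the family, so these r are a description only.

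G-CSF replicates 3 and 4, the brightest arrays, often stood apart from the other arrays. In 14 of the 38 genes both arrays were above the other 6, as in Psma3, Psmb1, Psmc3, Psmd6 and Psme3, and in 10 both were below them, as in Psmb2, Psmc4, Psmd4, Psmd7 and Psmg2. Together these were 63.2% of the subunit genes, against 38.6% of all tested probes, whose median level was lower. G-CSF and Naive values did not overlap in 4 of the 38 genes on the brightest probe (Psmc5, Psme1 and Psme3 higher, Psmd8 lower, with the other Psmc5 probe of opposite sign), or 10.5%, against 13.6% of all tested probes. Without these 2 arrays, 3 of the 55 member probes (5.45%) had an unadjusted limma p under 0.05, against 14.1% of all tested probes. The part of array brightness in these values was not tested.

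**Figure D3:**
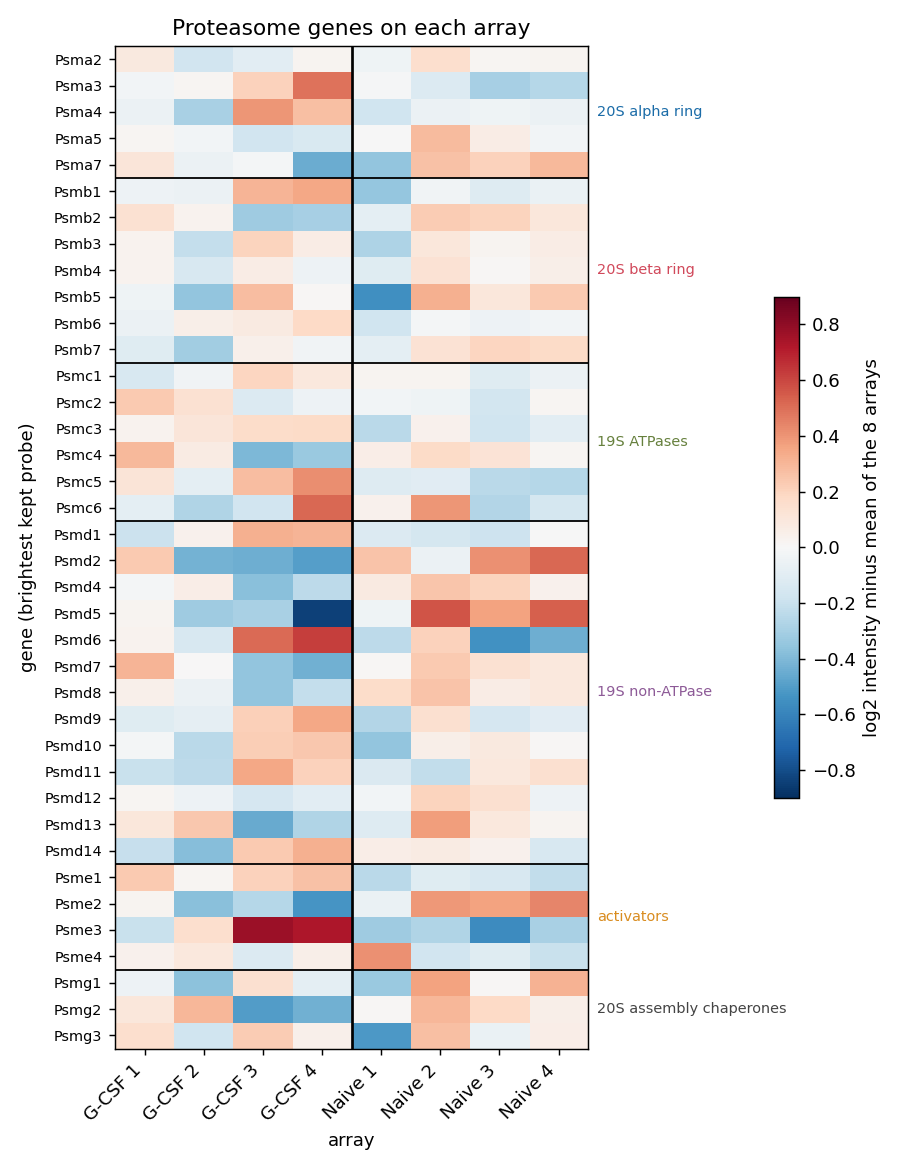
Log2 intensity of each of the 38 subunit genes (rows, by subcomplex) minus its mean of the 8 arrays (columns, G-CSF left of Naive), red above and blue below the mean. G-CSF replicates 3 and 4 are both red above the other arrays in 14 genes and both blue below them in 10, and no column is of 1 colour throughout.

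Several probes of a gene often disagreed. Of the 13 member genes with several tested probes, 5 had differences of both signs (Psmc5, Psmd9, Psmd10, Psmd12 and Psmg2). The median gap between a gene's lowest and highest difference was 0.27. Over the 1830 other tested genes with several probes this gap was 0.31, and 41.9% had both signs. Besides Psmc5, Psmd10 had a gap over 0.5 with both signs. Its 2 brighter probes gave 0.10 and 0.03. The dimmest had log2 intensities of 9.63, 9.31, 9.45 and 9.29 in G-CSF arrays, against 9.59, 10.03, 10.09 and 9.88 in Naive arrays, a difference of -0.48 ± 0.15 (SE; limma adjusted p = 0.0994). Probes agreed closely for Psma7, Psmd11, Psmb2 and Psmb7, with gaps of 0.00 to 0.10.

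**Figure D4:**
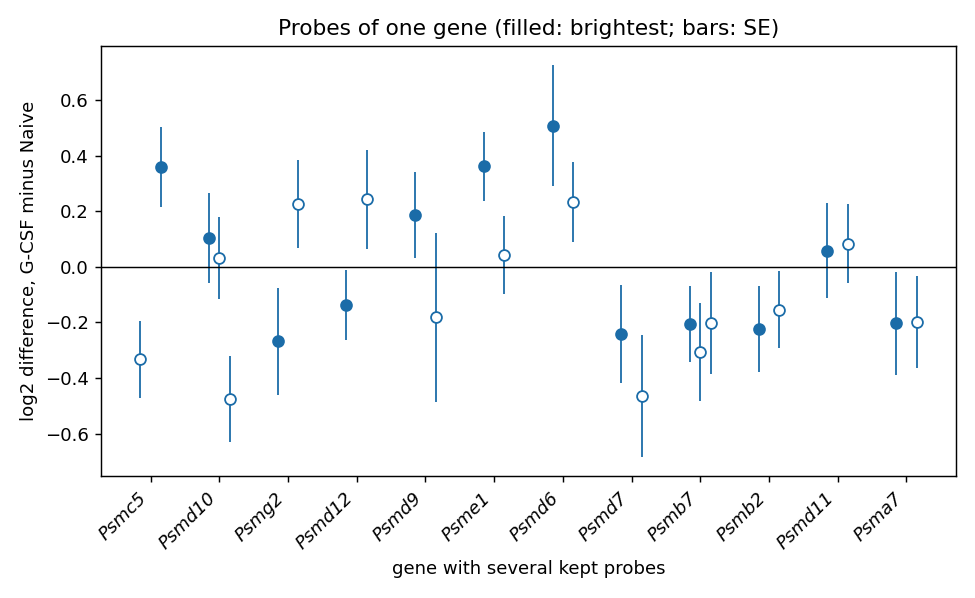
Log2 difference between G-CSF and Naive arrays (y axis) on each tested probe of the 12 subunit genes with several, ordered by the gap between probes, with filled points for the brightest probe and bars for the SE. Psmc5 probes lie at 0.36 and -0.33, whereas both Psma7 probes lie at -0.20.

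Genes that work with the proteasome were also without a call. Of 29 listed genes on the array 23 were tested, with 11 positive and 12 negative differences, a median of -0.03, and 7 at an unadjusted limma p under 0.05, where 24.9% of all tested probes were. In 2 of the 23 (Ubqln4 and Ube2d3) the groups did not overlap, as in 13.6% of all tested probes. Among assembly factors and other partners, Zfand2a, which is induced when proteins misfold, had 10.75, 11.01, 10.16 and 10.24 in G-CSF arrays, against 11.77, 10.93, 11.32 and 11.03 in Naive arrays. Its difference was -0.72 ± 0.24 (SE; limma adjusted p = 0.103). The proteasome-bound deubiquitinase gene Usp14 had 7.95, 7.79, 8.60 and 8.90 in G-CSF arrays, against 7.72, 8.11, 7.59 and 7.16 in Naive arrays, with a difference of 0.67 ± 0.27 (limma adjusted p = 0.164). As with Psme3, the bright replicates 3 and 4 were the highest. Pomp, the chaperone of core maturation, had -0.06.

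Nfe2l1, the factor that drives proteasome genes when proteasome activity is short, had 10.64, 10.88, 10.44 and 10.81 in G-CSF arrays, against 10.46, 9.95, 10.48 and 10.26 in Naive arrays. The difference was 0.40 ± 0.16 (SE; limma adjusted p = 0.167), and Keap1, which restrains the related factor encoded by Nfe2l2, had -0.10. Of the shuttle and segregase genes, Ubqln4 had 9.03, 8.83, 9.36 and 9.24 in G-CSF arrays, against 8.67, 8.42, 8.68 and 8.50 in Naive arrays. The difference was 0.55 ± 0.15 (SE; limma adjusted p = 0.0746), and Nploc4 had 0.45 ± 0.18 (adjusted p = 0.164). Of the ubiquitin-conjugating enzyme genes, Ube2d3 had 9.67, 9.73, 9.80 and 9.55 in G-CSF arrays, against 9.84, 10.38, 10.27 and 9.94 in Naive arrays. The difference was -0.42 ± 0.16 (limma adjusted p = 0.135), and Ube2k had -0.28 ± 0.13 (adjusted p = 0.229). In these bulk samples fewer cells of a type and less RNA per cell cannot be told apart.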

How the data were processed

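RNA of 8 samples was measured on bead arrays. The authors deposited probe intensities that were not normalised, with detection p-values, per the file headers. The submitters' processing notes name GenomeStudio, and what else was done is not given in the sources used here. The lowest intensities were 70.3 to 82.3, so no background had been subtracted. The deposited log2 table matched log2 of the quantile-normalised intensities centred on each probe's median (SD of the difference at most 1.109e-04), with column medians of -0.00488 to 0.00568, and served as an alternative. Detection p-values were assigned to the array whose intensities they rank with, a match by values that no header gives.

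Normexp background correction, informed by the detection p-values, was followed by quantile normalisation and log2 with an offset of 16 (neqc, limma 3.58.1, R 4.3.3). Probes detected at 0.01 on 4 or more arrays were kept. Groups were compared with lmFit and eBayes over all 10205 kept probes and adjusted by Benjamini-Hochberg, called at 0.05. The fit was tested on simulated data. Of the probes, 23978 had 1 gene symbol, 0 several and 1719 none, from GEO's platform annotation. Symbols were taken as annotated and no coordinates are given for probes.

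Named in full were called members, Psmb5, Psmb6 and Psmb7, the largest differences each way in each subcomplex, genes whose probes differ in sign by over 0.5, and the leading genes of the partner list. Genes whose groups do not overlap were added after their values were seen. The members and lists were chosen with earlier results of these data known. Alternatives were other background corrections, scalings, filters, variance models, weights per array, arrays left out, and a block for the replicate number. The precision is limited by the 4 arrays per group.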

Additional observations from a re-analysis of the deposited data

Results flagged for a closer look

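In 5 of 82 groups of 4 arrays, 1 array lay far from the other 3; chance alone would single out about 1 in 20. In G-CSF arrays this was replicate 1 for Psmd2 (log2 intensity 7.51, others 6.78 to 6.85) and for the immunoproteasome gene Psmb9 (13.66, others 13.37 to 13.41). In Naive arrays it was replicate 1 for Psma4 (12.96, others 13.09 to 13.10), Psma7 (12.24, others 12.81 to 12.89) and Psme2 (10.29, others 10.71 to 10.79). All 5 are first replicates.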

How the results depend on the processing

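No proteasome probe was called in 18 of the 22 alternatives. The exceptions were array weights, median scaling, and the fits without G-CSF replicate 1 or Naive replicate 1. Array weights called 7 higher and 15 lower (40% of member probes, against 37% of all tested probes). These were probes of Psma3, Psma7, Psmb1, Psmb2, Psmc5, Psmd2, Psmd4, Psmd5, Psmd6, Psmd7, Psmd8, Psmd10, Psmd12, Psme1, Psme2, Psme3, Psme3ip1 and Psmg2. Median scaling called 1 higher (Psme3), 1.82% of member probes against 8.39% of all tested probes. Without G-CSF replicate 1 there were 1 higher and 3 lower (Psme3, Psme2, Psmd2 and Psmd5), 7.27% against 6.98%. Without Naive replicate 1 there were 0 higher and 3 lower (Psmd5, Psmd10 and Psme2), 5.45% against 10.7%. Over the arrays left out in turn, calls ranged from 0 to 1 higher and from 0 to 3 lower. Over all tested probes the number of calls was 224, with 3776 under array weights, 856 under median scaling, 4 with no filter, 48 with a detection p-value under 0.05, and 712 and 1089 without G-CSF replicate 1 and Naive replicate 1. The other arrays left out gave 1 to 10. Without G-CSF replicates 3 and 4 limma called 0 (1439 at an unadjusted p under 0.05).

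Median scaling moved the median of all tested probes to 0.29, and that of the subunit genes to 0.24. The alpha ring had 0.00406, the beta ring 0.20, the ATPases 0.31, the other 19S genes 0.15, the activators 0.40 and the chaperones 0.16. Under it Psma7 (0.00406), Psmb7 (0.0255 and 0.125 on 2 probes), Psmc4 (0.0375) and Psmg2 (0.0581), as well as Psmb5 (0.25) and Psmc6 (0.22), turned positive among the genes named in full. Median scaling over probes detected on all arrays gave -0.11 for the subunit genes, -0.34 for the alpha ring, -0.0358 for the ATPases and 0.0541 for the activators, with all probes at -0.06, and Psma4 (-0.02), Psmb6 (-0.0155) and 1 Psmd10 probe (-0.01) turned negative. Array weights gave 0.20 for the ATPases and 0.27 for the activators, which ranged from 0.16 to 0.26 with 1 array left out. With the mean over a gene's probes the activators had 0.12 and the chaperones -0.02. Without G-CSF replicates 3 and 4 the chaperones had 0.04997, and Psmb7 (0.0332 on 1 probe), Psmc4 (0.0920) and Psmg2 (0.0638) turned positive, while Psma4 (-0.09) and the 2 brighter Psmd10 probes (-0.08 and -0.12) turned negative. Among other members, Psmd13 (0.08) and the brighter Psmd7 probe (0.03) also turned positive. Apart from the arrays and scaling altered, the cause was not tested.

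Replicate numbers are shared by both groups. Deviations of same-numbered arrays correlated at -0.12 to 0.18, and only 1 of 4 G-CSF arrays correlated best with its own number. With so few arrays this cannot decide whether the numbers pair the samples, and the labels do not say. With the replicate number as a block 0 member probes were called higher and 0 lower, and 4 of all probes. For the partner list only 3 alternatives were run, fewer than for the members, and no gene of the list was called under them.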
